A study of Sus scrofa with 6 samples.

Results

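The genes described here are 8 genes of pig chromosome 2 that belong to the blood lineages: KLF1, LYL1, LMO2, EPOR and PRDX2 on the erythroid side, and SPI1, CSF1R and MPEG1 on the macrophage side. They were chosen by name, with earlier results of these data known. They lie among the 1652 genes that could be tested among the 30434 listed, and all 8 passed the filter on low counts. Their transcripts were joined to gene symbols with the NCBI annotation of Sscrofa11.1, and each gene's counts and TPM (a transcript level that takes length into account) are the sums of its transcripts.

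RNA was sequenced from whole day 21 pig embryos, freed from the placenta, all 6 labelled Landrace x Yorkshire x Duroc (LYD). The 3 parthenogenetic (PA) embryos were diploid and carried maternal genomes only. They arose from oocytes from ovaries of LYD pigs, matured in vitro, activated by electric pulses and placed in the oviducts of surrogate gilts. The 3 control (CN) embryos carried a maternal and a paternal genome and came, by the study's methods, from naturally mated LY gilts, with no breed stated there for the boars. The uni-maternal genome therefore cannot be told apart from the breed of the mothers, the route of conception and the recipient gilts. The sex of the embryos is not given in the sources used here. Each embryo is 1 library, and the tests below treat the 3 embryos of a group as independent. By the study's methods, each group came from fewer gilts than it has embryos, so some embryos of a group shared a gilt. Which ones did is not stated. The p-values below measure the spread between these embryos only.

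Primitive and definitive red cells are made in the yolk sac and then the fetal liver, where erythropoietin acts through its receptor and the transcription factor KLF1 switches on globin, membrane and heme genes. Macrophages also appear first from the yolk sac, under the ETS factor PU.1 (encoded by SPI1) and the receptor for the growth factor CSF1, and in the liver they engulf the nuclei that maturing red cells expel. LMO2 and LYL1 act earlier, in the stem and progenitor cells from which both lineages come, and both are also used by endothelium.

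Between 3100284 and 3573406 estimated counts were obtained per embryo. Transcripts annotated on chromosome 2 held 91.9% to 92.74% of them in CN and 82.77% to 91.24% in PA. Most of the rest, from 6.883% in CN1 to 16.93% in PA1, was held by 1 unannotated transcript. Its chromosome is not given by the annotation used, so it is not counted with chromosome 2. Outside chromosome 2, 113 genes passed the filter, but most defining genes of the lineages there could not be read. The globins HBB, HBE1 and HBZ, the red cell genes GATA1, TAL1 and ALAS2 and the macrophage markers CD68, CD163, TYROBP and AIF1 were listed at 0 in all 6 embryos, but so were ACTB and GAPDH, which every cell uses. The presence of erythroid cells and macrophages thus rests here on the chromosome 2 genes alone. A count of 3, taken as the floor, was worth 0.8395 to 0.9677 CPM (counts scaled to the size of the library), a limit that covers counting error only, and every member lay far above it.

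All 8 genes were expressed in every embryo, and none met the call for differential expression, an adjusted p (Benjamini-Hochberg, over all genes tested) below 0.05 with an absolute log2 fold change above 1 in edgeR's quasi-likelihood test. Of all genes tested, 2.97% met it. None of the 8 had an adjusted p below 0.05 in either direction, against 4.42% of all genes lower in PA and 2.0% higher. At an unadjusted p below 0.05 there were 2 members, KLF1 and LYL1, against 20.9% of all genes. Of the 8, DESeq2 gave KLF1 alone an adjusted p below 0.05, 0.0348, with a log2 fold change of -0.748. Without the filter on low counts, edgeR gave an adjusted p of 0.000274 for KLF1 and 0.0228 for LYL1, both still short of the fold change required. That fit tested 4269 genes, and its p-values moved at almost the same fold changes. The edgeR adjusted p of the listed gene CTSD fell from 0.000105 to 6.77e-45, while that of LMO2 rose from 0.399 to 0.661. The values for KLF1 and LYL1 are therefore not read as stronger evidence. In bulk embryos, fewer cells of a lineage and less RNA per cell cannot be told apart.

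**Figure D1:**
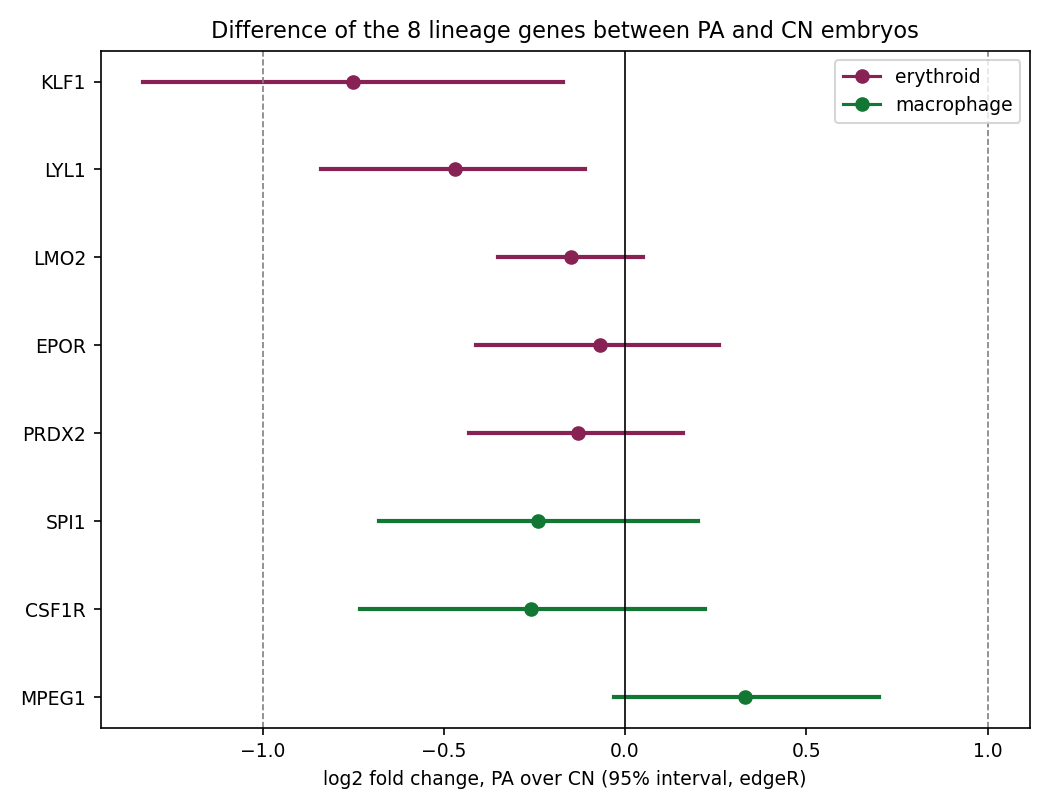
The log2 fold change of PA over CN (horizontal axis) is plotted for the 5 erythroid and 3 macrophage genes, with points for the edgeR estimate, bars for its 95% interval and dashed lines at -1 and 1. The intervals of KLF1 and LYL1 lie below 0, and those of the other 6 genes include 0.

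KLF1 encodes the zinc finger factor that defines the red cell lineage. On Sscrofa11.1 the gene spans chr2:66144767-66148500, plus strand. Its normalized CPM was 101.4, 106.3 and 195.6 in CN1, CN2 and CN3 and 80.45, 87.87 and 71.65 in PA1, PA2 and PA3. The PA embryos all lay below the lowest CN embryo, and CN3 stood high within its group. Its log2 fold change was -0.75 (SE 0.25, 95% interval -1.33 to -0.17), or 0.595 times the CN level, with an edgeR adjusted p of 0.126. Without CN3 it was -0.38 (adjusted p = 0.281 in edgeR), so 1 control embryo set much of its size. In TPM, KLF1 was at 154.1 ± 63.36 (SD, n = 3) in CN and 87.39 ± 8.252 (SD, n = 3) in PA, and the exact two-sided permutation test gave p = 0.1, the smallest that 3 embryos against 3 allow. KLF1 was the only member whose groups did not overlap in CPM and in TPM before rescaling. Once TPM was rescaled by trimmed-mean factors, LYL1 and MPEG1 also overlapped in neither measure. In normalized CPM, 14.3% of all genes tested were lower in every PA than in every CN embryo, and 13.8% were higher.

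LYL1 encodes a basic helix-loop-helix factor of blood progenitors that pairs with E proteins. The gene spans chr2:65950608-65956423, plus strand. Its normalized CPM was 152.5, 206.9 and 232.5 in CN1 to CN3 and 129.3, 150.7 and 146.1 in PA1 to PA3. The groups did not overlap, but CN1 and PA2 were nearly level. The log2 fold change was -0.47 (SE 0.16, 95% interval -0.84 to -0.11), with an edgeR adjusted p of 0.126. Without CN1 it was -0.63 and passed at an edgeR adjusted p of 0.0224, and without CN3 it was -0.34 and did not, at 0.362. In TPM the groups overlapped, 88.46 ± 23.02 in CN and 60.82 ± 9.056 in PA (SD, n = 3 each, exact permutation p = 0.3), and after rescaling TPM by a trimmed mean they did not (exact p = 0.1).

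LYL1 shares exon sequence with a gene on the other strand. Its last exon and that of NFIX, a CCAAT-box factor, both cover chr2:65954808-65956423, which is 1616 bases or 41.0% of the exon bases of LYL1. The library did not keep strand, so reads in that stretch could be given to either gene. NFIX itself had a log2 fold change of 0.04 (edgeR adjusted p = 0.841), with no shift of its own in either direction that passed the test. How much of the LYL1 count came from the shared stretch was not tested.

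KLF1, LYL1 and PRDX2 lie close together on the chromosome. The windows from 250 bases before to 50 bases after the annotated starts of KLF1 and LYL1, read from the RefSeq genome of Sscrofa11.1 on the plus strand, are printed because these 2 are the members with an unadjusted p below 0.05. Capitals mark matches on either strand to the GATA motifs AGATAA or AGATAG or TGATAA or TGATAG, or to CACCC, the core of the box that KLF factors bind.
KLF1 chr2:66144517-66144816: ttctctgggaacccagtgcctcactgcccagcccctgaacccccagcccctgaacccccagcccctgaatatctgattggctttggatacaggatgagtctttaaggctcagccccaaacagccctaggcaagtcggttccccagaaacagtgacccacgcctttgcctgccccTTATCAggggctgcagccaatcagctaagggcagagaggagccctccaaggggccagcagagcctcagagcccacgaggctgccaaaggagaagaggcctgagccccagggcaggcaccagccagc
LYL1 chr2:65950358-65950657: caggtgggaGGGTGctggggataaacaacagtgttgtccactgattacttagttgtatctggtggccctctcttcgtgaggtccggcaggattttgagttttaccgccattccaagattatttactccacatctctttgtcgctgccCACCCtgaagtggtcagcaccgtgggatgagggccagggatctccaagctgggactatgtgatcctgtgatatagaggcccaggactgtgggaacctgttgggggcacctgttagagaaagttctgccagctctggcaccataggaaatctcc
The KLF1 window held 1 GATA match, read as TTATCA on the printed strand and beginning 76 bases before the start, and no CACCC. The LYL1 window held no GATA match and 2 CACCC matches, the first as GGGTG on the printed strand. Over 1997 promoter windows of chromosome 2 of the same length, 27.0% held a GATA match and 58.6% a CACCC match. A match is a description of letters, not of a bound site.

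LMO2 encodes the bridging protein that joins the GATA and helix-loop-helix factors of blood progenitors in 1 complex. At its locus, chr2:27033924-27055457 on the plus strand, the normalized CPM was 411.9, 351.1 and 389.2 in CN1 to CN3 and 339.7, 349.3 and 351.5 in PA1 to PA3. PA3 lay just above CN2, so the groups touched. PA over CN, the log2 fold change was -0.15 (SE 0.09, 95% interval -0.35 to 0.05), with an edgeR adjusted p of 0.399. In TPM the groups did not overlap, 401.9 ± 10.02 in CN and 349.9 ± 35.23 in PA (SD, n = 3 each, exact permutation p = 0.1). That separation was lost, at an exact p of 0.2, when TPM was rescaled by trimmed-mean factors, which ran from 0.9085 in PA1 to 1.1 in CN2.

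EPOR encodes the erythropoietin receptor, through which red cell progenitors survive and divide. It lies at chr2:70063601-70068821 on the minus strand, and its normalized CPM was 99.12, 82.81 and 107.6 in CN1 to CN3 and 82.54, 102.2 and 90.65 in PA1 to PA3. The groups lay within the same range. The log2 fold change was -0.07 (SE 0.15, 95% interval -0.41 to 0.26), with an edgeR adjusted p of 0.823, and its sign turned to 0.01 without CN3 and to 0.02 without PA1. The interval leaves room for a level up to 1.2 times that of CN or down to 0.754 times, so the p does not show that the groups were alike. The genes for erythropoietin and for the macrophage ligands CSF1 and IL34 lie on other chromosomes and were listed at 0 in all 6 embryos, so no ligand could be set beside its receptor.

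PRDX2 encodes a peroxiredoxin, one of the most abundant proteins of red cells, where it removes hydrogen peroxide, and it is also made in many other tissues. It lies at chr2:66207829-66211474 on the plus strand and was by far the highest member, at rank 21 of 1539 tested chromosome 2 genes by mean TPM in CN. Its normalized CPM was 4472, 3167 and 3510 in CN1 to CN3 and 3641, 3322 and 3191 in PA1 to PA3. CN1 was the highest and CN2 the lowest of the 6 embryos, so the PA embryos lay inside the range of CN. The log2 fold change was -0.13 (SE 0.13, 95% interval -0.43 to 0.16), with an edgeR adjusted p of 0.609, and without CN1 it was 0.02. In TPM, 7894 ± 780 in CN stood against 6939 ± 144.6 in PA (SD, n = 3 each, exact permutation p = 0.1), but after the trimmed-mean rescaling the groups overlapped (exact p = 0.7). The first exon of PRDX2 shares a short stretch with RNASEH2A on the other strand, whose log2 fold change was -0.16 (edgeR adjusted p = 0.451).

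SPI1 encodes PU.1, which in high amounts directs progenitors to the macrophage fate. It lies at chr2:15227850-15245679 on the plus strand, and its normalized CPM was 93.54, 106.3 and 101.2 in CN1 to CN3 and 106.3, 86.52 and 62.43 in PA1 to PA3. The CN embryos were close together, while PA1 was level with the highest of them and PA3 was well below all. For SPI1 the log2 fold change was -0.24 (SE 0.19, 95% interval -0.68 to 0.2), with an edgeR adjusted p of 0.528. Without PA3 it was -0.06 and without PA1 -0.41, where the edgeR adjusted p was 0.191. In TPM the means were 140.6 ± 20.06 in CN and 112.3 ± 20.14 in PA (SD, n = 3 each, exact permutation p = 0.2).

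CSF1R encodes the receptor tyrosine kinase on which most macrophages depend for survival. It lies at chr2:151102138-151130311 on the minus strand, and its normalized CPM was 157.6, 296.6 and 259.4 in CN1 to CN3 and 218.7, 187 and 192.4 in PA1 to PA3. The CN embryos enclosed the whole PA range, because CN1 was the lowest of all 6. The log2 fold change was -0.26 (SE 0.21, 95% interval -0.73 to 0.22), with an edgeR adjusted p of 0.539. Without CN1 it was -0.48 and passed at an edgeR adjusted p of 0.0462, and without CN2 it was -0.06. In TPM the means were 112.2 ± 41.3 in CN and 88.47 ± 4.632 in PA (SD, n = 3 each, exact permutation p = 0.5).

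MPEG1 encodes perforin-2, a pore-forming protein with which macrophages attack engulfed bacteria, and it is widely used to mark macrophages in embryos. The locus is chr2:12194303-12196594, plus strand. Its normalized CPM was 47.48, 50.92 and 52.76 in CN1 to CN3 and 53.14, 70.9 and 66.32 in PA1 to PA3. Every PA embryo was above every CN embryo, although PA1 barely so. MPEG1 had a log2 fold change of 0.33 (SE 0.16, 95% interval -0.03 to 0.7), with an edgeR adjusted p of 0.287. In TPM, where the groups overlapped, the means were 39.76 ± 4.837 in CN and 48.23 ± 9.963 in PA (SD, n = 3 each, exact permutation p = 0.3), and after the rescaling they did not overlap (exact p = 0.1).

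**Figure D2:**
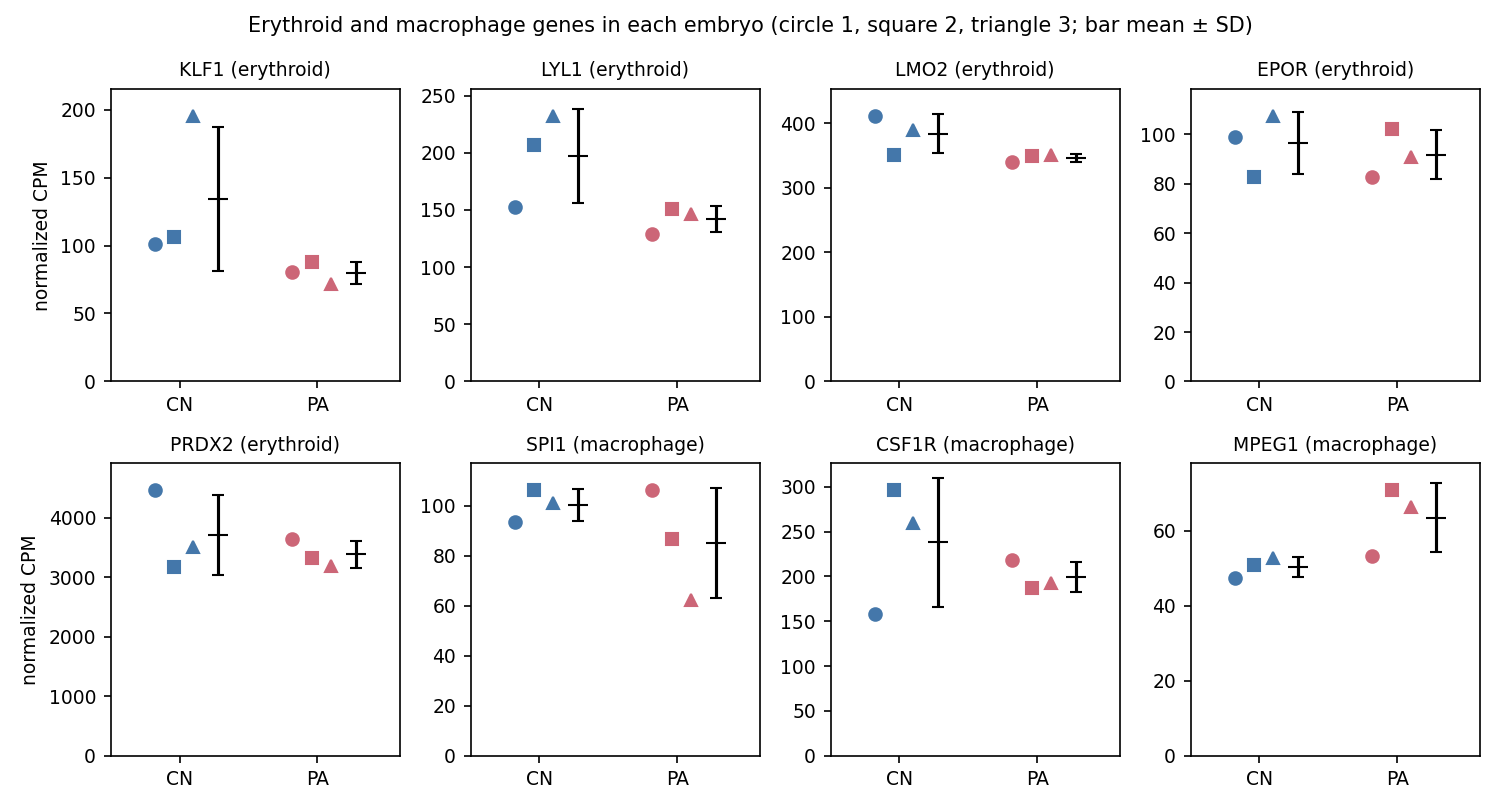
Normalized CPM (vertical axes, from 0) is plotted for each of the 8 genes in the 3 CN and 3 PA embryos, with circles, squares and triangles for embryos 1, 2 and 3 and bars for the mean ± SD. KLF1 and LYL1 are lower in all PA than in all CN embryos, MPEG1 is higher in all PA embryos, and the groups of the other 5 genes overlap.

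Across the members, normalized CPM was lower in every PA than in every CN embryo for KLF1 and LYL1, and higher for MPEG1. Over all genes tested, 14.3% had no overlap in the lower direction and 13.8% in the higher, so the members' counts of 2 and 1 of 8 were near that background and are not a result about the members. Of the 5 erythroid genes, 5 had a negative log2 fold change, as did 2 of the 3 macrophage genes, while the median of all genes tested was 0.01. The macrophage genes thus did not point 1 way, since CSF1R and SPI1 had negative estimates and MPEG1 a positive one, all with intervals that include 0.

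Ordered by mean TPM in CN, the erythroid genes ran PRDX2, LMO2, KLF1, EPOR and LYL1, and the macrophage genes ran SPI1, CSF1R and MPEG1. KLF1, SPI1, CSF1R, EPOR and LYL1, at means of 154.1, 140.6, 112.2, 97.65 and 88.46 TPM in CN, each overlapped the next in that order, while PRDX2, LMO2 and MPEG1 overlapped neither neighbour. In PA the same 5 genes had means of 87.39, 112.3, 88.47, 89.68 and 60.82 TPM, with KLF1, CSF1R and EPOR within 3 TPM of each other. The TPM of the erythroid genes without PRDX2 summed to 656.1, 715.7 and 854.4 in CN1 to CN3 and to 517.9, 614.2 and 631.4 in PA1 to PA3. The summed TPM of the macrophage genes was 220.6, 350.4 and 306.6 in CN and 256, 253.5 and 237.4 in PA. These erythroid sums did not overlap between the groups and the macrophage sums did, and a difference between the lineages was not tested. How often sums of other genes separate was not worked out. Of single genes tested, 14.3% were lower in every PA than in every CN embryo in normalized CPM. The TPM in these sums was not rescaled, and PRDX2 alone overlapped after rescaling. With PRDX2 included, the erythroid sums in TPM were 9432, 8011 and 8465 in CN1 to CN3 against 7372, 7471 and 7737 in PA1 to PA3, and without it those in normalized CPM were 747.1 to 924.9 in CN and 632 to 690 in PA, neither with overlap. With PRDX2 included and in normalized CPM, they were 5237, 3914 and 4435 in CN1 to CN3 and 4273, 4012 and 3851 in PA1 to PA3, and they overlapped.

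Ratios of TPM within an embryo take out the scale of the library. KLF1 stood at 1.15, 1.44 and 2.04 times EPOR in CN1 to CN3 and at 1.1, 0.967 and 0.889 times in PA1 to PA3. The highest PA ratio was just below the lowest CN ratio. KLF1 over LMO2 was 0.268, 0.329 and 0.546 in CN and 0.257, 0.273 and 0.222 in PA, where PA2 reached into the CN range. MPEG1 over SPI1 was 0.286, 0.27 and 0.294 in CN and 0.282, 0.462 and 0.599 in PA, so that PA1 was like the controls and PA2 and PA3 were above them. These ratios are given as descriptions with no test.

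LMO2, SPI1 and CSF1R were annotated with more than 1 expressed transcript, and the other 5 genes with 1. For LMO2, transcript XM_005661026.2 held 56.33%, 64.55% and 63.42% of the gene's TPM in CN1 to CN3 and 46.97%, 66.08% and 41.3% in PA1 to PA3. The PA embryos spread on both sides of the CN range. For SPI1, NM_001001865.1 held 62.01%, 61.79% and 56.19% in CN and 74.54%, 65.65% and 61.19% in PA, where PA3 lay inside the CN range. For CSF1R, XM_013995332.2 held 52.13%, 50.74% and 53.57% in CN and 45.33%, 15.45% and 44.55% in PA, with no overlap. That difference was not tested, and how often shares of other genes separate was not worked out. Transcript XM_003124100.6 of CSF1R was listed at 0% in CN1, CN3 and PA1 but at 14.88% in CN2, 54.49% in PA2 and 12.71% in PA3. The division of reads among near-identical transcripts is an estimate, and such all-or-none shares occurred in both groups.

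**Figure D3:**
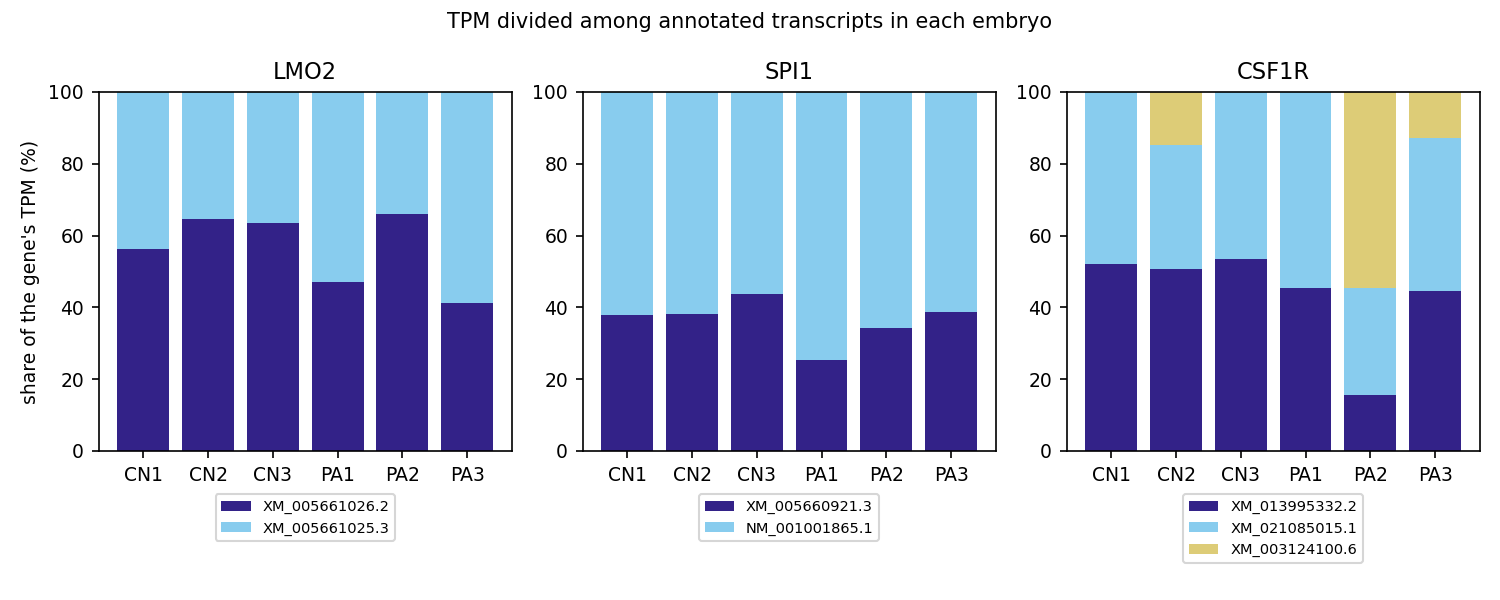
Each bar is 1 embryo and divides the TPM of LMO2, SPI1 or CSF1R (vertical axis, percent of the gene's TPM) among annotated transcripts. The 2 transcripts of LMO2 and of SPI1 were present in all 6 embryos, while XM_003124100.6 of CSF1R appeared only in CN2, PA2 and PA3.

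The genes whose profile over the 6 embryos was closest to the mean profile of the erythroid members were CD151, MAP3K11, CD82, SLC35C1 and LOC100737821. Their mean absolute distances, in centred log2(CPM + 1), were 0.0659, 0.06704, 0.07172, 0.0736 and 0.07701, smaller than that of any member from the same mean (0.1011 for LMO2 to 0.2241 for KLF1). For the macrophage members the closest were EHD1, PNPLA2, DOCK6, SEMA6B and APBA3, at 0.01691 to 0.04794, against 0.1525 for CSF1R to 0.231 for MPEG1. The points of each profile are the same 6 libraries, and the likeness carries no test.

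Of 30 further genes with a red cell, erythroid regulator or KLF1 locus role, 21 lie on chromosome 2 and were tested. KLF2, a relative of KLF1 that acts in endothelium and in primitive red cells, was lower in PA, and none was higher. That is 1 of 21, beside 4.42% of all genes tested lower in PA and 2.0% higher, so the count is not a result about the list. KLF2 counts were 488, 573 and 576 in CN1 to CN3 and 303, 372 and 386 in PA1 to PA3, with no overlap and a log2 fold change of -0.69 (SE 0.12, edgeR adjusted p = 0.0124). It did not pass without CN2 (0.0674) or without CN3 (0.0595). The median log2 fold change of the 21 genes was -0.07. Those with the highest mean TPM did not pass in edgeR: ferritin heavy chain FTH1 had a log2 fold change of -0.03 (adjusted p = 0.89), the ribosomal gene RPS14 0.13 (0.61), the chaperone CALR -0.29 (0.244) and the blood group carrier BSG -0.23 (0.387). DNASE2, the next gene after KLF1 on the same strand, is the nuclease with which macrophages digest expelled red cell nuclei, and its log2 fold change was 0.29 (edgeR adjusted p = 0.152).

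Of 45 further myeloid and leukocyte genes, 33 lie on chromosome 2 and 29 were tested. CTSD, FERMT3 and MS4A4A were lower in PA and none was higher, beside 4.42% and 2.0% of all genes tested. The median log2 fold change over the 29 was -0.2, with 16 of the 29 negative and the rest positive. CTSD, the lysosomal protease cathepsin D, which most cells make, had counts of 13913, 14025 and 12654 in the CN embryos and of 5499, 4794 and 4780 in the PA embryos. The log2 fold change of CTSD was -1.49 (SE 0.11, edgeR adjusted p = 0.000105). It kept an adjusted p below 0.05 in 14 of 14 alternative fits. FERMT3, the integrin activator kindlin-3 of blood cells, was at 998, 1587 and 1822 counts in CN embryos and at 685, 636 and 999 in PA embryos, with -0.99 as its log2 fold change (SE 0.22, edgeR adjusted p = 0.0394). Its highest PA embryo had about as many counts as its lowest CN embryo, though not after normalization, and its adjusted p stayed below 0.05 in 10 of 14 fits and not without CN2, CN3, PA1 or PA2 (adjusted p = 0.0751 to 0.142 in edgeR).

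MS4A4A, a membrane protein of macrophages, was measured with few counts, 25, 11 and 12 in the CN embryos against 2, 4 and 2 in the PA embryos. It passed the filter on low counts only through CN, with PA1 and PA3 below the floor of 3, so its call supports nothing about the list, and 2 genes of the list were lower where at least 10 counts were required in every embryo. The PA to CN ratio of its summed counts per library total was 0.154, with an exact interval of 0.0627 to 0.328 that covers counting error only and not the spread between embryos. Its edgeR adjusted p was 0.0299. It did not pass without any 1 of the 6 embryos (adjusted p = 0.0544 to 0.0872). Among the others of the list with the highest mean TPM, the thiol reductase IFI30 had a log2 fold change of -0.68 (edgeR adjusted p = 0.0685), the MHC chaperone CD74 -0.48 (0.5), complement C3 0.22 (0.883) and the kinase TYK2 0.15 (0.609). The summed normalized CPM of the 29 genes was 8753 to 9498 in CN and 5064 to 7781 in PA. CTSD alone accounted for 3814 to 4352 of it in CN and 1354 to 1680 in PA. Without CTSD the sums of the groups overlapped, and PA1 was the highest embryo.

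Markers of other cell types were read in the same embryos. Of 6 endothelial markers, 3 were lower in PA at an adjusted p below 0.05, beside 4.42% of all genes tested, and none was higher. These were the lymphatic and vascular receptor LYVE1 (log2 fold change -1.14, SE 0.15, edgeR adjusted p = 0.00288), the diaphragm protein PLVAP (-0.36, SE 0.08, 0.0359) and KLF2, which also stands in the erythroid list. LYVE1 had 427, 355 and 368 counts in the CN embryos against 210, 171 and 175 in the PA embryos, and it kept an adjusted p below 0.05 in 14 of 14 alternative fits. PLVAP, whose log2 fold change is short of -1, had an adjusted p below 0.05 in 9 of 14 and not without CN2, CN3, PA1, PA2 or PA3. The summed CPM of the 6 markers was 2679 to 2913 in CN and 2236 to 2395 in PA, the same direction as KLF1 and LYL1, and its part in their values was not tested.

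Of 3 genes for neutrophil granule proteins, ELANE (log2 fold change -1.65, SE 0.37, edgeR adjusted p = 0.0382) and AZU1 (-1.46, SE 0.34, 0.0411) were lower in PA, beside 4.42% of all genes tested, and PRTN3 had -1.06 (SE 0.33, 0.0995). ELANE had 75, 203 and 122 counts in CN1 to CN3 against 43, 34 and 56 in PA1 to PA3. CN2 was the highest embryo for all 3 genes, and ELANE and AZU1 did not pass without it, at edgeR adjusted p of 0.1 and 0.111, nor without CN3, PA1, PA2 or PA3. The summed CPM of the 3 genes was 128.7, 355.5 and 218.4 in CN and 87.5, 84.3 and 104.2 in PA. CN1 was the lowest CN embryo in this sum, in KLF1, LYL1, SPI1, CSF1R and MPEG1, and in the endothelial, mural and lymphoid sums too. The highest CN embryo was CN2 for this sum, SPI1 and CSF1R and CN3 for KLF1, LYL1 and MPEG1, and the part of the granulocyte marker level in these values was not tested. None of 3 mural, 5 hepatocyte and 3 tested lymphoid markers passed in either direction.

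**Figure D4:**
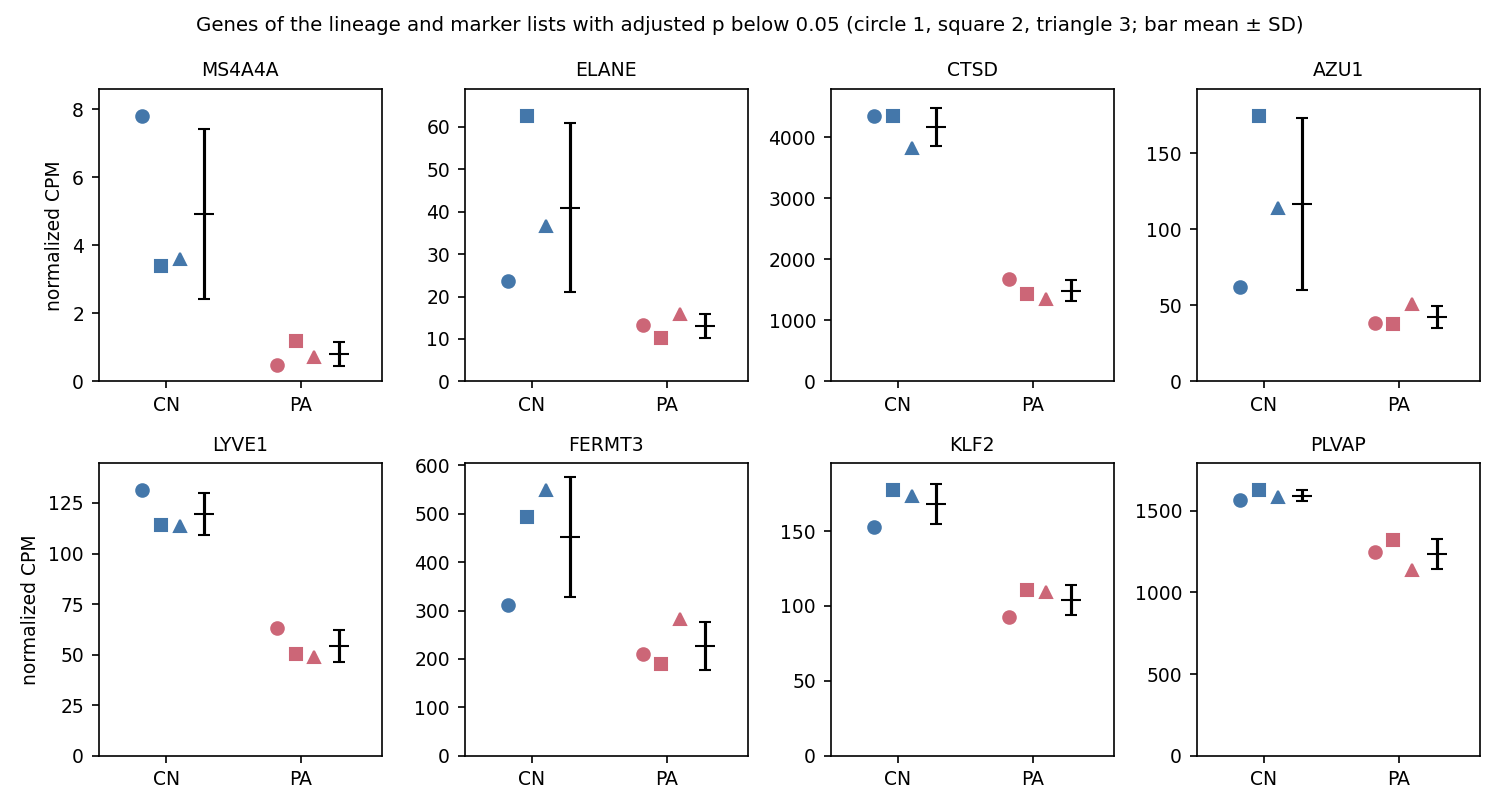
Normalized CPM (vertical axes, from 0) is plotted in each CN and PA embryo for the 8 genes of the lineage and marker lists with an edgeR adjusted p below 0.05, with bars for the mean ± SD. All 8 are lower in every PA than in every CN embryo, with log2 fold changes of -1.65 for ELANE to -0.36 for PLVAP in the 7 other than MS4A4A, whose PA counts are at or near the floor of 3.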

How the data were processed

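Transcripts of 3 PA and 3 CN embryos were quantified by the authors with Salmon 1.3.0 against Sscrofa11.1 from an unstranded, polyA-selected library. The authors deposited estimated counts for each of 81496 transcripts, not normalized, and TPM, which Salmon scales to 1 sum per embryo, so that TPM here is relative to chromosome 2 genes and 1 unannotated transcript. That transcript held 5.247% to 6.746% of TPM in CN and 7.154% to 13.68% in PA, which lowers the TPM of other genes unevenly between the groups. The effective lengths of transcripts in the deposited tables (unit: bases, listed as other) gave the length offset. That the RNA data were limited to chromosome 2 is not stated in the sources used here.

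Transcripts were joined to genes with NCBI Annotation Release 106 in Python 3.11.15, and only loci on chromosome 2 were read for the members and lists. Gene counts were rounded and tested in R 4.3.3 with edgeR 4.0.16 (TMM scaling, average transcript length offset, filterByExpr at 10 and 15, robust quasi-likelihood test, two-sided, Benjamini-Hochberg adjustment over 1652 genes). The thresholds were an adjusted p below 0.05 together with an absolute log2 fold change above 1. Normalized CPM is the count scaled to library size after TMM and length correction. TPM was compared as log2(TPM + 0.1) by exact permutation. The procedure was first tested on data with known answers. Alternatives were DESeq2 1.42.0, other scalings and filters, chromosome 2 genes alone, a replicate block and leaving out each embryo.

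Genes named are the 8 members, listed genes that passed or were among the 4 of the rest with the highest mean TPM, neighbours with shared exons and the 5 closest in profile per lineage. DNASE2 and PRTN3, the TPM ratios and the 2 printed promoter windows were chosen after values were seen. The members and lists were chosen with earlier results of these data known. No 2 libraries agreed within sampling noise.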

Additional observations from a re-analysis of the deposited data

How the results depend on the processing

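Over the 385 alternatives run on 44 results, 328 kept direction and side of the threshold or, for counts of genes and values with no test, moved little (a count within 1.5 times, a value within 1 SD). KLF1 passed an adjusted p of 0.05 at -0.739 with no expression filter (0.000274) and at -0.748 in DESeq2, and LYL1 at -0.465 with no filter (0.0228). Leaving out 1 embryo gave KLF1 from -0.914 to -0.376, LYL1 from -0.627 to -0.338, EPOR from -0.17 to 0.018, PRDX2 from -0.237 to 0.023 and CSF1R from -0.477 to -0.064, all as log2 fold changes. The log2 TPM difference of EPOR ran from -0.213 without PA2 to 0.007 without PA1, and the log2 fold change of EPOR was 0.014 without CN3. The 49 differentially expressed genes became 77 with no filter and 32 to 54 without 1 embryo. The 73 lower and 33 higher genes with an adjusted p below 0.05 became in all 196 with no filter, 173 in DESeq2 and 44 to 142 without 1 embryo. Erythroid list genes lower in PA numbered 2 in DESeq2 and 0 to 3 without 1 embryo. Macrophage list genes lower in PA numbered 5 with library totals, 7 with no filter, 6 in DESeq2 and 1 to 4 without 1 embryo. Apart from the embryos left out, the cause of these moves was not tested. Same-numbered embryos had correlated deviations of 0.224, 0.112 and 0.0258 over 1652 genes, and CN2 and CN3 correlated best with PA embryos of another number, so the numbers were not taken as pairs. With the replicate block, KLF1 was at -0.688 (edgeR adjusted p = 0.181), LYL1 at -0.457 (0.0742) and 45 genes were differentially expressed, and MS4A4A, ELANE and AZU1 no longer passed. With 3 embryos per group, the exact test cannot go below 0.1, and the ligand, globin and marker genes looked for outside chromosome 2 were at or near 0.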
